A study of Homo sapiens with 9 samples.

Results

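Knockout (KO) clone 5 was compared with wild-type (WT) clone 7, with 2 RNA-seq libraries of each clone, which are 4 of the 9 libraries of the series. The libraries were chosen by their labelled genotype and clone. All cells were HAP1, a near-haploid human line derived from the chronic myeloid leukaemia line KBM-7, and no treatment is labelled. KO clone 5 carried a MATR3 knockout and WT clone 7 carried no engineered change. Both came from Horizon Discovery, and WT clone 7 belonged to another batch of the wild-type product than WT clone 1. The other 5 libraries, KO clone 1 (n = 2) and WT clone 1 (n = 3), form a second pair that shares no library with the first. Each genotype is 1 clone in each pair, so the loss of MATR3 and any other difference between the clones cannot be told apart. The labels do not say that replicates were separate cultures, and p-values therefore measure the spread between libraries, which may be technical.

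MATR3 encodes matrin 3, a nuclear protein that binds RNA and DNA and takes part in splicing and in nuclear organisation. Mutations in the gene are found in amyotrophic lateral sclerosis. The title of the series concerns cGAS-STING, in which the sensor cGAS detects DNA in the cytosol and STING passes the signal to the kinase TBK1 and the transcription factor IRF3. Interferon made after such signalling acts through JAK kinases and STAT proteins on interferon-stimulated genes, whose promoters often carry an interferon-stimulated response element.

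Library totals, in units of 1000000 counts, were 21.0 and 18.5 in KO clone 5 and 29.98 and 16.1 in WT clone 7, within 16.1 to 34.4 over the series. Replicates of a clone differed well beyond counting noise, with a chi-square per degree of freedom of 11.5 in KO clone 5 and 11.1 in WT clone 7. WT clone 1 replicate 1, of the second pair, stood apart with 14.03% of its counts in repeats, against 10.3 and 10.5% in the other WT clone 1 libraries. Of 15 haematopoietic markers 7 were measured, among them the blood transcription factor genes TAL1 (39.5 and 41.1 counts per 1000000, CPM, in KO clone 5 and 40.4 and 40.9 CPM in WT clone 7) and GATA2 (43.8 and 52.7 CPM in KO clone 5 and 48.1 and 58.9 CPM in WT clone 7). The leukocyte and myeloid markers PTPRC, CD33, SPI1 and MPO were looked up but had no entry among the deposited counts. None of 4 endothelial markers was measured.

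MATR3 (hg38 chr5:139293674-139331677, plus strand) had 49.1 and 43.1 CPM in KO clone 5, against 224 and 220 CPM in WT clone 7. The groups did not overlap, and the RNA was 4.80-fold lower in the knockout clone (log2 difference -2.26, SE 0.10, edgeR adjusted p = 3.6e-05). The table also holds a second MATR3 entry that overlaps it, and reads of the overlap cannot be assigned between the entries. SNHG4, a small nucleolar RNA host gene of the same locus, had 68.03 and 64.8 CPM in KO clone 5 and 72.6 and 70.6 CPM in WT clone 7 (log2 difference -0.10, edgeR adjusted p = 0.40).

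Of 17680 genes tested, 1499 (8.48%) were higher and 1466 (8.29%) were lower in KO clone 5 at an edgeR adjusted p below 0.05. At least 2-fold changes made up 598 (3.38%) higher and 458 (2.59%) lower genes. The 2 groups did not overlap at 5027 genes (28.4%) with KO clone 5 above and at 5461 genes (30.9%) with KO clone 5 below. The median log2 difference over all genes was -0.02. When each of the 4 libraries was left out in turn, 688 of the higher and 714 of the lower genes passed every time. Without KO clone 5 replicate 2 the higher genes numbered 928 and the lower 980, and DESeq2 called 921 higher and 1281 lower.

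Genes of the long arm of chromosome 6 beyond 100 Mb moved together. Of 296 genes tested there, 212 (71.6%) were higher and 8 were lower, with a median log2 difference of 0.90, or 1.87-fold. The 607 genes tested before 100 Mb on the same chromosome held 45 higher and 41 lower genes with a median of 0.01, and the 16563 genes on all other chromosomes had a median of -0.02. At the edge of the stretch, the helicase gene ASCC3 was at -0.10 (edgeR adjusted p = 0.50), and GRIK2, the glutamate receptor gene next along with a symbol, was at 0.43 (edgeR adjusted p = 0.010). Each 10 Mb window from 100 to 170 Mb had a median between 0.83 and 1.07. Beyond these windows, the largest medians among those with at least 20 genes were -0.39 on chromosome 12, 0.38 on chromosome 9 and -0.34 on chromosome 19. KO clone 1 against WT clone 1 gave 0.83 for the 294 genes tested beyond 100 Mb on chromosome 6, with 194 higher and 12 lower, and the test of the difference between the pairs had a median of 0.01 there. List members called within this stretch are named as such below. All counts of called list members are to be read beside 8.48% higher and 8.29% lower over all genes.

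**Figure D1:**
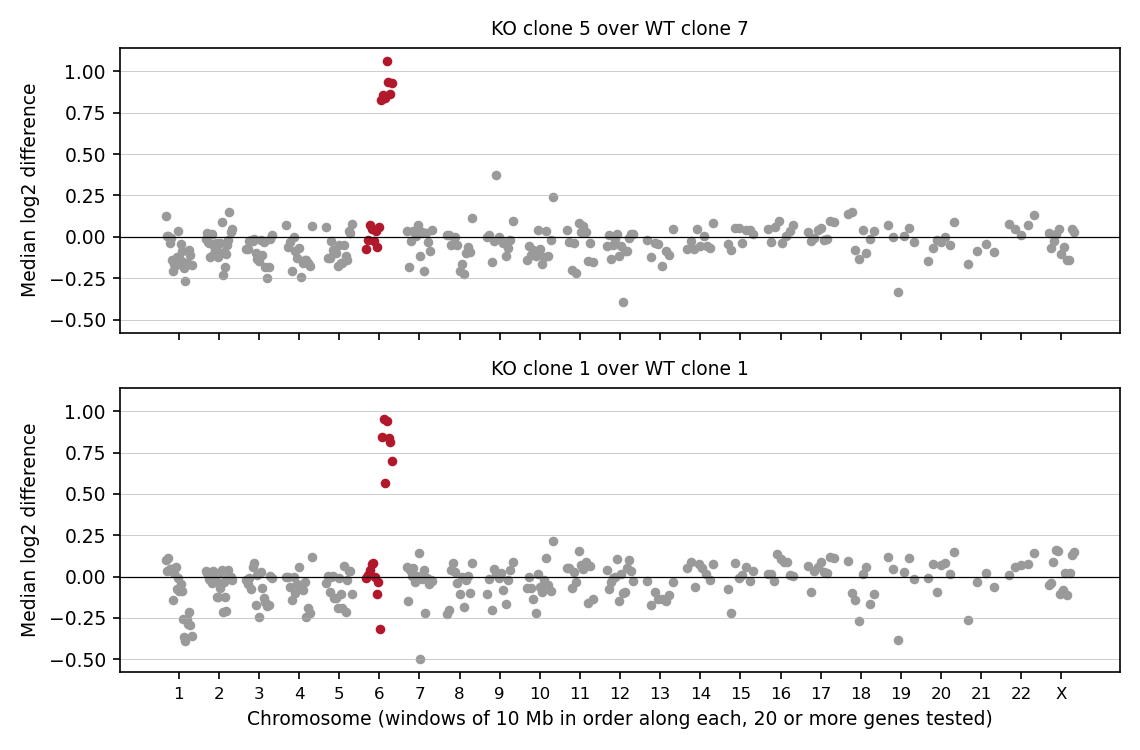
Median log2 difference per 10 Mb window along each chromosome, for windows with at least 20 genes tested, in KO clone 5 over WT clone 7 (top) and KO clone 1 over WT clone 1 (bottom). Windows of chromosome 6 are in red. In the top panel those beyond 100 Mb lie between 0.83 and 1.07 and no other window exceeds 0.38.

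The 8 largest rises were in genes that were nearly silent in WT clone 7. CTCFL (chr20:57495966-57525652), the germline paralogue of the insulator protein CTCF, had 12.8 and 12.3 CPM in KO clone 5, against 0 and 0.124 CPM in WT clone 7. The WT clone 7 value rests on 2 counts, and the ratio of 291 has an exact 95% interval of 80.1 to 2410 that covers counting error only. FAT3, a giant atypical cadherin gene (chr11:92224818-92896473), had 34.2 and 33.6 CPM in KO clone 5, against 0.528 and 0.124 CPM in WT clone 7 (log2 difference 6.45, SE 0.27). MYH14, a non-muscle myosin heavy chain gene, had 4.07 and 6.10 CPM in KO clone 5 and 0.066 and 0.124 CPM in WT clone 7 (5.78, SE 0.43). Lack of overlap between the groups was a condition for being named among the largest rises. In these 3 genes the gap between the groups was far larger than that between replicates. The neurofilament light chain gene NEFL rose by 5.11 (SE 0.20) to 16.0 and 18.8 CPM, and ATCAY, which encodes the neuronal protein caytaxin, by 4.95 (SE 0.30) to 5.63 and 5.28 CPM. AEBP1, a matrix-associated carboxypeptidase-like protein gene, rose by 4.63 (SE 0.25), CAPN6, a calpain family gene, by 4.47 (SE 0.23) and IRX4, a homeobox transcription factor gene, by 4.31 (SE 0.35). Adjusted p-values of the 8 genes ran from 3.5e-05 to 0.00038 by edgeR.

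Of these 8, CAPN6, MYH14 and AEBP1 also passed the test of the difference between the pairs. CAPN6 had 9.46 and 8.77 CPM in KO clone 5 and 0.462 and 0.311 CPM in WT clone 7, whereas in the second pair it had 0.349 and 0.664 CPM in KO clone 1 and 0.123 to 0.797 CPM in WT clone 1 (edgeR adjusted p of the difference 0.017). CTCFL stayed at 0.465 and 0.866 CPM in KO clone 1 and at 0 to 0.177 CPM in WT clone 1, and its difference between the pairs had an edgeR adjusted p of 0.071. The calls of the difference for CAPN6, MYH14 and AEBP1 were lost when any 1 of KO clone 5 replicate 1 (0.080, 0.076 and 0.067), replicate 2 (0.075, 0.12 and 0.070), WT clone 7 replicate 1 (0.085, 0.17 and 0.094), replicate 2 (0.065, 0.12 and 0.065), KO clone 1 replicate 1 (0.093, 0.14 and 0.087) or replicate 2 (0.10, 0.16 and 0.11) was left out, in that order of genes.

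The 8 largest falls ended at or next to 0 in KO clone 5. PPP2R2B, a regulatory subunit gene of protein phosphatase 2A (chr5:146580742-147084784), had 0 counts in both KO clone 5 libraries, against 17.0 and 18.6 CPM in WT clone 7, which makes it at least 230.9-fold lower. By the same bound, set with a floor of 3 counts over the group, the fucosyltransferase gene FUT9 was at least 68.7-fold lower, the fibrillar collagen gene COL11A1 at least 54.5-fold, the lymphatic growth factor gene VEGFC at least 47.7-fold, the receptor tyrosine kinase gene ERBB4 at least 43.2-fold, the microfibril protein gene MFAP2 at least 40.1-fold and TCEAL8, a transcription elongation factor A-like gene, at least 31.5-fold. Each of these 6 had 0 counts in both KO clone 5 libraries and 2.34 to 5.35 CPM in WT clone 7. S100A6, which encodes the calcium-binding protein calcyclin, had 1 count in KO clone 5, against 11.8 and 12.5 CPM in WT clone 7, a ratio of 476 (exact 95% interval 85.2 to 18849). COL11A1, FUT9, VEGFC and TCEAL8 also had 0 counts in KO clone 1. PPP2R2B and ERBB4 were still detected there, at 0.349 and 0.231 CPM and at 0.290 and 0.404 CPM.

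**Figure D2:**
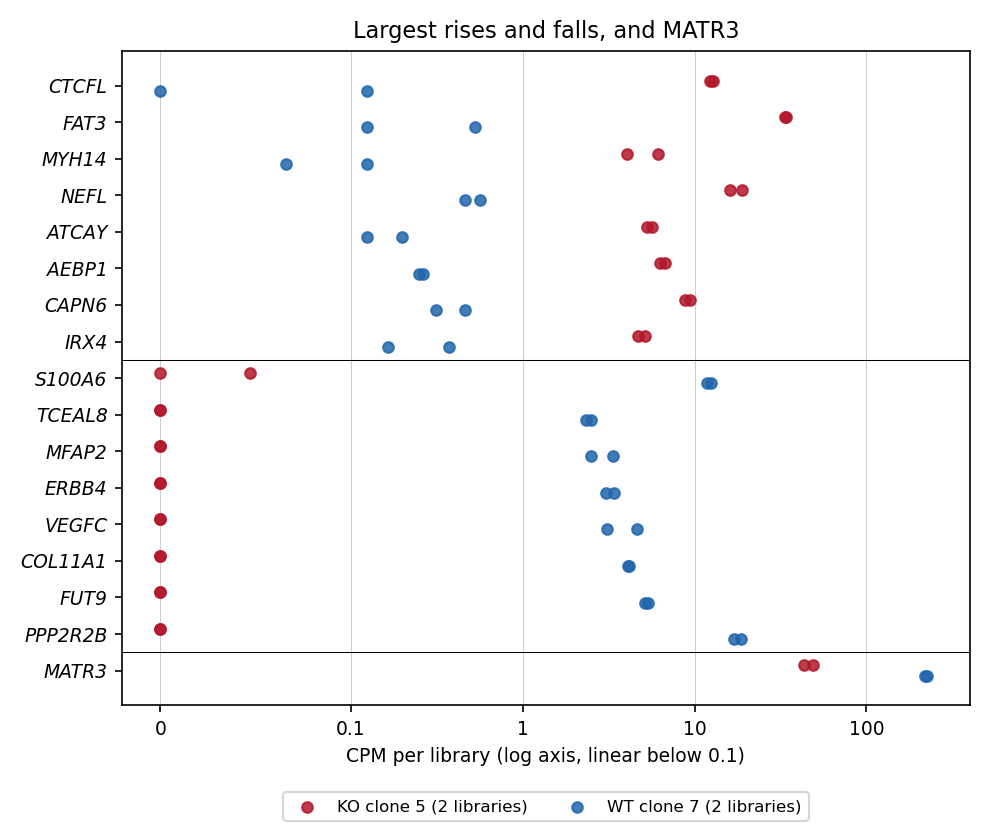
CPM per library (log axis, linear below 0.1) of the 8 genes with the largest rises, the 8 with the largest falls and MATR3, with KO clone 5 libraries in red and WT clone 7 libraries in blue. The rising genes hold at least 4.07 CPM in KO clone 5 and under 0.6 CPM in WT clone 7, and 7 of the falling genes are at 0 in both KO clone 5 libraries.

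Interferon-stimulated genes, the antiviral effectors that interferon induces, were split. Of 28 tested, 9 were higher and 4 were lower, with a median log2 difference of 0.18, beside 8.48% higher and 8.29% lower over all genes. None of them lies beyond 100 Mb on chromosome 6. IFITM1, whose product blocks viral entry, had 16.9 and 17.3 CPM in KO clone 5, against 2.08 and 2.74 CPM in WT clone 7 (2.86, SE 0.16, edgeR adjusted p = 9.4e-05). Its near-identical neighbour IFITM2 rose by 2.95 (SE 0.17), although reads may be split between them. MX1, an antiviral GTPase gene, had 1.61 and 1.58 CPM in KO clone 5, against 0.099 and 0.249 CPM in WT clone 7 (3.32, SE 0.47). ISG15, a ubiquitin-like modifier gene, had 17.2 and 19.3 CPM in KO clone 5, against 6.77 and 5.23 CPM in WT clone 7 (1.59, SE 0.15). In all 3 genes every KO clone 5 library lay above both WT clone 7 libraries, as at 28.4% of all genes tested. Of the 28 members, 14 lay above without overlap and 8 lay below, where 30.9% of all genes lay below. OAS2, which makes the activator of RNase L, rose by 1.93 (SE 0.16), and the ADP-ribosyltransferase family genes PARP12, PARP9 and PARP14 rose by 0.91, 0.85 and 0.53. LGALS3BP, a secreted galectin-binding protein gene, was higher by 0.43, and its edgeR adjusted p went to 0.098 without KO clone 5 replicate 2 and without WT clone 7 replicate 1.

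The 4 lower members were chosen for naming after their values were seen, except IFIT1. HERC5, the ligase gene that attaches ISG15 to proteins, had 8.60 and 7.68 CPM in KO clone 5, against 14.1 and 13.1 CPM in WT clone 7 (-0.74, SE 0.12, edgeR adjusted p = 0.0083). IFIT1, an RNA-binding effector gene, had 1.94 and 1.63 CPM in KO clone 5, against 3.83 and 2.99 CPM in WT clone 7 (-0.94, SE 0.24, edgeR adjusted p = 0.037). IFI27 was lower by -1.24 and HERC6 by -0.43. HERC5 was called whichever library was left out. IFIT1 was not called without KO clone 5 replicate 1 (edgeR adjusted p = 0.071), KO clone 5 replicate 2 (0.13) or WT clone 7 replicate 1 (0.13), IFI27 without KO clone 5 replicate 1 (0.077) or replicate 2 (0.064), and HERC6 without KO clone 5 replicate 2 (0.14) or WT clone 7 replicate 1 (0.12). In KO clone 1 against WT clone 1, 9 of 28 were higher and 1 was lower, with a median of 0.33. HERC5 and HERC6 were at 0.07 and 0.27 in that pair, and both passed the test of the difference between the pairs (edgeR adjusted p = 0.047 and 0.048). Neither of these 2 calls held without any single library of KO clone 5, WT clone 7 or KO clone 1, with edgeR adjusted p from 0.12 to 0.19, nor without WT clone 1 replicate 3 (0.067 and 0.072).

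The promoters of the higher and of the lower members hold the same kind of element. The core of the interferon-stimulated response element, searched as GAAA, any 2 bases and GAAA, and on the other strand as TTTC, any 2 bases and TTTC, with overlapping matches allowed, occurs from 250 bases before to 50 after the start in 1255 of 35116 promoters of the RefSeq table (3.57%), and in 294 of 10799 promoters of tested genes, taken once a gene (2.72%). Of 24 tested interferon-stimulated genes with a promoter in the table, 19 (79.2%) held it, among them 6 of 7 higher members and 3 of 4 lower members. Stretches of 70 bases (RefSeq, GRCh38.p14, in the direction of the gene) are shown for 3 members that were higher (ISG15 at chr1:1013357-1013426, IFITM1 at chr11:313987-314056 and MX1 at chr21:41420538-41420607) and 3 that were lower (HERC5 at chr4:88456989-88457058, IFIT1 at chr10:89392483-89392552 and IFI27 at chr14:94110604-94110673), all on the plus strand, with matches in capitals.
ISG15: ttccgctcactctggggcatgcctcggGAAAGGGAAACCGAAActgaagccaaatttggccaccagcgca
IFITM1: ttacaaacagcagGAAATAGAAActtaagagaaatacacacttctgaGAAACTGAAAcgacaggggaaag
MX1: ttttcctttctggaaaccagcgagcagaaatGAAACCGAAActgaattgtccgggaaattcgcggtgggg
HERC5: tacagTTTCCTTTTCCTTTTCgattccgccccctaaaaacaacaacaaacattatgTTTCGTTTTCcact
IFIT1: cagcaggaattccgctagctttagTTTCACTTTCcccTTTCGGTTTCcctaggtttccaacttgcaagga
IFI27: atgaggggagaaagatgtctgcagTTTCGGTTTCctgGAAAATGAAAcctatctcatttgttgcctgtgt
A match describes these letters only and is not a measured binding site. ISG15 rose and IFIT1 and HERC5 were lower with 2 or more matches in each of these stretches.

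Upstream of these effectors, 17.4% of the cGAS-STING list, 18.8% of the cytosolic RNA-sensing list and 19.1% of the NF-kB list were called either way, beside 16.8% over all genes, and 4.76% of the interferon signalling list. Among 23 components of the cGAS-STING pathway 2 were higher and 2 were lower, with a median of 0.00, and 0 of the higher and 1 of the lower calls held without each library. The higher members were CGAS and ENPP1, a hydrolase gene of the cGAS product that lies in the raised stretch of chromosome 6, which leaves 1 higher among 22 members elsewhere. ENPP1 (0.47) lost its call without KO clone 5 replicate 1 (edgeR adjusted p = 0.11) or replicate 2 (0.068) and without WT clone 7 replicate 2 (0.13). CGAS, the DNA sensor (chr6:73413515-73452297), had 19.7 and 23.1 CPM in KO clone 5, against 15.1 and 16.4 CPM in WT clone 7 (0.45, SE 0.12, edgeR adjusted p = 0.040). The libraries did not overlap, but the call was lost without KO clone 5 replicate 2 (0.14) and without WT clone 7 replicate 1 (0.12), and DESeq2 gave 0.095. STING (TMEM173) had 0.615 and 0.599 CPM in KO clone 5 and 1.19 and 1.74 CPM in WT clone 7 (-1.23, SE 0.35, edgeR adjusted p = 0.055). The gene IFI16, whose product senses DNA in the nucleus, had 0.426 and 0.599 CPM in KO clone 5 and 0.825 and 0.809 CPM in WT clone 7 (-0.68, edgeR adjusted p = 0.27). In the second pair IFI16 had 0.058 and 0.029 CPM in KO clone 1, against 15.6, 4.79 and 4.37 CPM in WT clone 1, and the difference between the pairs had an edgeR adjusted p of 0.05002, above the threshold. The folate and cyclic dinucleotide importer gene SLC19A1 fell by 0.50 on the log2 scale (edgeR adjusted p = 0.0084). Of 21 interferon receptors, kinases and transcription factors, the 1 called gene was the interferon-gamma receptor gene IFNGR1 (0.87), which lies in the raised stretch of chromosome 6. Of 21 NF-kB pathway genes and targets 3 were higher and 1 was lower. The adhesion molecule gene VCAM1 had 13.8 and 15.5 CPM in KO clone 5, against 1.02 and 0.622 CPM in WT clone 7 (4.07, SE 0.21), and the other higher members, SOD2 and TNFAIP3, lie in the raised stretch of chromosome 6. TNFAIP3 was not called without KO clone 5 replicate 2 (edgeR adjusted p = 0.093). Of 16 cytosolic RNA-sensing genes 2 were higher and 1 was lower, and 0 of these 3 calls held without each library. DDX58, which encodes RIG-I, had 12.2 and 11.6 CPM in KO clone 5 and 7.86 and 7.71 CPM in WT clone 7 (0.62), a call lost without KO clone 5 replicate 1 (edgeR adjusted p = 0.051), as was that of the RNA helicase sensor gene IFIH1 (1.25, then 0.080). The RNA helicase gene DHX9 (-0.34) was not called without KO clone 5 replicate 2 (0.145), WT clone 7 replicate 1 (0.12) or WT clone 7 replicate 2 (0.064).

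Antigen presentation by MHC class I, which displays peptides made by the proteasome, was higher at 7 of 20 tested members and lower at 1, with a median of 0.32. The genes of the immunoproteasome catalytic subunits stood out. PSMB8 had 18.2 and 18.9 CPM in KO clone 5, against 4.06 and 4.79 CPM in WT clone 7 (2.08, SE 0.13, edgeR adjusted p = 0.00015). PSMB9, next to the peptide transporter gene TAP1, had 2.931 and 2.995 CPM in KO clone 5, against 0.858 and 0.871 CPM in WT clone 7 (1.77, SE 0.24). For both genes no library of one clone overlapped the other, which held upward at 28.4% of all genes tested. NLRC5, the transactivator of class I genes, rose by 0.75 (SE 0.11) and TAP1 by 0.51 (SE 0.08). The class I heavy chain genes HLA-C and HLA-B were higher by 0.58 and 0.45, with reads that can be shared between similar genes, and HLA-B lost its call without KO clone 5 replicate 2 (edgeR adjusted p = 0.13) and without WT clone 7 replicate 1 (0.065). In KO clone 1 against WT clone 1, 2 of 20 were higher and the median was 0.08. The difference between the pairs was not called for any of the 20 (edgeR adjusted p of PSMB8 0.18 and HLA-B 0.052).

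Epithelial markers were higher at 9 of 17 tested genes and lower at none, with a median of 1.70, beside 8.48% higher over all genes. In KO clone 1 against WT clone 1, 8 of 15 were higher and 1 was lower, with a median of 0.63. The difference between the pairs was called for none of the 18 members tested for it. KRT8, the keratin of simple epithelia, had 58.7 and 61.8 CPM in KO clone 5, against 12.01 and 12.75 CPM in WT clone 7 (2.29, SE 0.09, edgeR adjusted p = 3.5e-05). E-cadherin (CDH1) had 1.37 and 1.85 CPM in KO clone 5 and 0 in both WT clone 7 libraries, at least 24.6-fold higher. P-cadherin (CDH3) had 17.1 and 18.1 CPM in KO clone 5, against 1.72 and 2.67 CPM in WT clone 7 (3.06, SE 0.20). TJP3, of the tight junctions, rose by 2.34 (SE 0.31) and SPINT2, a protease inhibitor gene, by 1.71 (SE 0.09). KRT18, the partner of keratin 8, was at 53.1 and 67.0 CPM in KO clone 5 and 48.0 and 54.9 CPM in WT clone 7 (0.23, edgeR adjusted p = 0.25). Of the 9, 6 were called whichever library was left out. EPCAM, an epithelial adhesion molecule gene of the cell type check, was at 0.0946 and 0.0545 CPM in KO clone 5 and 0.495 and 0.249 CPM in WT clone 7 and was too low to be tested. The summed level of the 5 measured of 7 epithelial markers of that check was 113.7 and 131.1 CPM in KO clone 5 and 60.53 and 67.93 CPM in WT clone 7, nearly all of it KRT8 and KRT18, of which KRT18 was not called. The sum of the 3 measured of 7 fibroblast markers was 28.93 and 29.68 CPM in KO clone 5 and 63.11 and 58.17 CPM in WT clone 7, nearly all of it PDGFRA. The haematopoietic sum was 164 and 172.7 CPM in KO clone 5 and 132.1 and 143.6 CPM in WT clone 7. MYB, on the raised stretch of chromosome 6, held 57.4 and 57.3 CPM of it in KO clone 5. In WT clone 7 MYB held 16.1 and 16.9 CPM. The sum of 4 measured of 7 neuronal markers was 71.2 and 76.61 CPM in KO clone 5 and 65.15 and 69.36 CPM in WT clone 7. Within it NEFL rose from 0.462 and 0.560 CPM to 16.0 and 18.8 CPM, while TUBB3 had a log2 difference of -0.30. Of each set, 2 markers were called higher and 1 lower. In bulk libraries, fewer cells of a type and less RNA per cell cannot be told apart.

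Mesenchymal and fibroblast markers were lower at 6 and higher at 2 of 16 tested genes (median -0.71), and each of these 8 calls held without any single library. N-cadherin (CDH2) had 33.0 and 30.8 CPM in KO clone 5, against 93.9 and 91.3 CPM in WT clone 7 (-1.54, SE 0.08). Vimentin (VIM), the intermediate filament of mesenchymal cells, had 249.9 and 296 CPM in KO clone 5, against 567 and 622 CPM in WT clone 7 (-1.12, SE 0.11). The platelet-derived growth factor receptor gene PDGFRA fell by 1.02, the transcription factor gene ZEB1 by 0.92 and fibronectin (FN1) by 0.90. The 2 higher members were tropomyosin 2 (TPM2), at 121 and 155 CPM in KO clone 5 and 8.12 and 9.89 CPM in WT clone 7 (3.96, SE 0.16), and the transcription factor gene TWIST2 (3.10, SE 0.37). In the second pair 5 of 16 were lower and 1 was higher (median -0.24). CDH2 at -0.58, PDGFRA at -0.44, POSTN at -4.88 and TPM2 at 3.76 were called there in the same direction. VIM at -0.22, ZEB1 at -0.25 and FN1 at -0.02 were not called there. The difference between the pairs was called for CDH2, FN1, VIM and ZEB1. The call for CDH2 (edgeR adjusted p = 0.0043) was lost without KO clone 1 replicate 2 (0.054), and those for FN1, VIM and ZEB1 (0.019, 0.042 and 0.048) without any 1 library of KO clone 5, WT clone 7 or KO clone 1 (0.070 to 0.21). ZEB1 was also not called without WT clone 1 replicate 2 (0.059) or 3 (0.068).

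The extracellular matrix list showed the same mixture, with 14 of 30 lower and 6 higher (median -0.39), and 12 and 5 of these held without each library. Thrombospondin 1 (THBS1) had 0.189 and 0.109 CPM in KO clone 5, against 8.91 and 9.95 CPM in WT clone 7 (-5.90, SE 0.27). The laminin beta 1 gene LAMB1 had 8.98 and 10.6 CPM in KO clone 5, against 79.0 and 80.6 CPM in WT clone 7 (-3.02, SE 0.10). SPARC, which encodes the collagen-binding protein osteonectin, had 10.1 and 9.64 CPM in KO clone 5, against 60.1 and 59.6 CPM in WT clone 7 (-2.59, SE 0.09). These were lower in both KO clone 5 libraries by many times the gap between replicates. THBS2 fell by 3.01 (SE 0.10) although it lies in the raised stretch of chromosome 6. The cross-linking enzyme gene LOX fell by 2.03 and the proteoglycan gene VCAN by 1.80. The laminin alpha 4 gene LAMA4 rose by 1.92 (SE 0.13), also in that stretch, and the basement membrane gene NID2 and the collagen genes COL1A1, COL5A2 and COL18A1 rose by 1.10, 0.99, 0.96 and 0.78. Of 15 integrin genes 3 were higher, of which 1 held without each library, and 1 was lower, the last being ITGB8, which activates latent TGF-beta (-1.63, SE 0.16).

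Genes of the nervous system moved both ways. Of 20 neuronal genes 5 were higher and 4 were lower (median -0.06), and of 56 axon guidance genes 11 were higher and 13 were lower (median 0.02). Without each library 4 and 1 of the neuronal calls and 3 and 10 of the axon guidance calls held. The neuronal pentraxin gene NPTX2 had 14.6 and 15.6 CPM in KO clone 5, against 1.02 and 1.06 CPM in WT clone 7 (3.86, SE 0.16). EPHA3, an ephrin receptor gene, had 0.567 and 0.980 CPM in KO clone 5, against 33.4 and 31.5 CPM in WT clone 7 (-5.40, SE 0.19). EPHB6, a kinase-dead ephrin receptor gene, had 19.7 and 20.4 CPM in KO clone 5, against 1.32 and 1.74 CPM in WT clone 7 (3.75, SE 0.16). Members of this receptor family thus stood at both ends of the list. The ephrin gene EFNB2 fell by 3.35 (SE 0.15) and EPHA7 by 3.83 (SE 0.19), while the slit ligand gene SLIT3 rose by 2.62 (SE 0.24). SLIT3 was at -0.37 in the second pair, and its difference between the pairs (2.98, edgeR adjusted p = 0.0047) was lost without KO clone 1 replicate 2 (0.063). Of 27 protocadherin genes, which encode neuronal adhesion molecules, 9 were lower and 1 was higher (median -0.59). PCDH9 had 16.2 and 15.8 CPM in KO clone 5, against 55.3 and 51.3 CPM in WT clone 7 (-1.73, SE 0.09). PCDH17 had 1 count in KO clone 5 and 6.799 and 6.221 CPM in WT clone 7, a ratio of 261 (exact 95% interval 46.5 to 10333). Reads of the clustered members, such as PCDHB2 (2.68), can be split between near-identical copies.

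Signalling ligands and receptors changed in part. Of 40 WNT pathway genes 11 were higher and 5 were lower (median 0.17), with 4 and 3 of these held without each library. The ligand gene WNT3 had 19.3 and 20.5 CPM in KO clone 5, against 3.47 and 2.80 CPM in WT clone 7 (2.65, SE 0.14), and its receptor family member FZD10 rose by 2.13 (SE 0.16). SFRP1, a secreted WNT antagonist gene, had 0.898 and 1.36 CPM in KO clone 5, against 8.68 and 10.7 CPM in WT clone 7 (-3.10, SE 0.24). Of 42 TGF-beta and BMP genes 7 were higher and 8 were lower (median -0.01). The inhibitory SMAD7 rose by 0.76 and the activin subunit gene INHBB by 1.42, while BMP2 fell by 3.04 and the BMP antagonist gene NOG by 1.39. LTBP1, which anchors latent TGF-beta, had 3.92 and 3.48 CPM in KO clone 5, against 0.891 and 0.871 CPM in WT clone 7 (2.07, SE 0.24). Of 32 FGF, VEGF and ERBB ligands and receptors 9 were higher and 11 were lower (median -0.02), with 1 and 6 held without each library. The lymphatic VEGF receptor gene FLT4 had 47.1 and 48.4 CPM in KO clone 5, against 17.7 and 20.6 CPM in WT clone 7 (1.33, SE 0.10), whereas its ligand gene VEGFC was at 0 counts in KO clone 5. FGF2 fell by 0.73 and PDGFC by 0.67.

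Among transcription factors of body patterning, 7 of 29 HOX genes were higher and 2 were lower (median 0.15), with 3 and 0 held without each library. HOXC11 had 9.27 and 12.4 CPM in KO clone 5, against 1.55 and 1.74 CPM in WT clone 7 (2.73, SE 0.21), although the antisense RNA HOTAIR overlaps it and how reads were assigned by strand is not stated. HOXD13 rose by 1.28 (SE 0.10). Of 12 haematopoietic genes tested 3 were higher and 4 were lower, with 3 and 2 held without each library. KIT, the stem cell factor receptor gene, had 1.42 and 1.74 CPM in KO clone 5, against 8.61 and 7.71 CPM in WT clone 7 (-2.37, SE 0.19), and CD44 fell by 3.15 (SE 0.22). MYB, a blood progenitor transcription factor gene in the raised stretch of chromosome 6, had 57.4 and 57.3 CPM in KO clone 5, against 16.1 and 16.9 CPM in WT clone 7 (1.80, SE 0.08). KIT, CD44 and MYB each separated the clones without overlap, as did 30.9% of all genes downward and 28.4% upward.

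The integrated stress response, which raises amino acid supply through ATF4, was lower at 12 of 29 tested members and higher at 1 (median -0.28), and 7 of the 12 held without each library. SLC7A11, the cystine transporter gene, had 45.0 and 39.6 CPM in KO clone 5, against 70.6 and 61.1 CPM in WT clone 7 (-0.64, SE 0.10). The glycyl-tRNA synthetase gene GARS had 176 and 198 CPM in KO clone 5, against 282 and 296 CPM in WT clone 7 (-0.63, SE 0.09). PSAT1 and SLC7A1, which serve serine synthesis and cationic amino acid uptake, fell by 0.58 and 0.52. Over all genes, 16.8% were called either way, beside 44.8% of the integrated stress response list. The share was 27.3% in the glycolysis and hypoxia list and in the p53 list. It was near that of all genes in the heat shock and cholesterol lists (17.9% each) and the NRF2 list (17.4%). Heat shock and unfolded protein genes were lower at 4 and higher at 1 of 28, with 2 and 0 held without each library, the chaperone gene HSPA8 at -0.46 and the stress sensor gene ATF6 at -0.53. Of 23 NRF2 targets 4 were lower and none was higher, among them the oxidoreductase gene NQO1 (-0.50) and the malic enzyme gene ME1 (-0.69). Of 33 glycolysis and hypoxia genes 3 were higher and 6 were lower, with 2 and 1 held without each library. EGLN3, an oxygen-sensing hydroxylase gene, had 7.94 and 9.42 CPM in KO clone 5, against 24.6 and 26.2 CPM in WT clone 7 (-1.55, SE 0.12). Of 28 cholesterol genes 2 were higher, among them ACAT2 (0.37) in the raised stretch of chromosome 6, and 3 were lower, with 0 and 2 held without each library. Of 22 p53 targets 4 were higher and 2 were lower, with 3 and 0 held, and DDB2, a DNA repair gene, at 0.60 and SESN1, in the raised stretch of chromosome 6, at 0.99.

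Of 40 cell cycle and replication genes 2 were higher and 5 were lower, with 1 and 2 held without each library. The share called either way was 17.5%, near the 16.8% over all genes. The cyclin genes of the early cell cycle went in opposite directions. CCND1 had 13.5 and 16.2 CPM in KO clone 5, against 4.88 and 3.86 CPM in WT clone 7 (1.74, SE 0.17, edgeR adjusted p = 0.000735). CCND2 had 34.3 and 35.4 CPM in KO clone 5, against 63.7 and 60.8 CPM in WT clone 7 (-0.84, SE 0.08, edgeR adjusted p = 0.00061). The ribonucleotide reductase gene RRM2 fell by 0.51.

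Among gene groups of the nucleus, 16.5% of zinc finger genes, 12.1% of heterochromatin genes, 9.52% of splicing regulators, 9.52% of histone genes, 8.0% of lamina, CTCF and cohesin genes, 5.56% of paraspeckle components and 2.41% of ribosomal protein genes were called either way, beside 16.8% over all genes. Of 42 splicing regulators 1 was higher, the neuronal factor gene NOVA2 (0.90, SE 0.15), and 3 were lower, with MBNL1 at -0.52 called whichever library was left out. Of 18 paraspeckle components the scaffold RNA NEAT1 was called, at 410 and 367 CPM in KO clone 5 and 277 and 263 CPM in WT clone 7 (0.53, SE 0.09, edgeR adjusted p = 0.0085), though not in a fit of all 9 libraries (0.46). Of 33 factors of heterochromatin and repeat silencing 4 were lower and none was higher. The cytidine deaminase gene APOBEC3C had 0.331 and 0.272 CPM in KO clone 5, against 16.2 and 17.1 CPM in WT clone 7 (-5.75, SE 0.19), with copies of its family that can share reads. The helicase gene MOV10 fell by 0.71 and ATF7IP, a partner of the methyltransferase SETDB1, by 0.63. Of 425 zinc finger (ZNF) genes 55 were lower and 15 were higher (median -0.11), and 24 and 5 of these held without each library. Of 25 lamina, CTCF and cohesin genes 1 was higher (SYNE1, in the raised stretch of chromosome 6) and 1 was lower. Of 63 histone genes 3 were higher and 3 were lower, with 0 and 2 held without each library. Of 83 cytosolic ribosomal protein genes 1 was higher and 1 was lower, the higher being RPS12 (1.10) on the same stretch of chromosome 6. Of 13 mitochondrially encoded genes 2 were lower, and neither held without KO clone 5 replicate 1 (edgeR adjusted p = 0.11 for ND2 and 0.061 for COX1) or WT clone 7 replicate 2 (0.11 and 0.12).

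**Figure D3:**
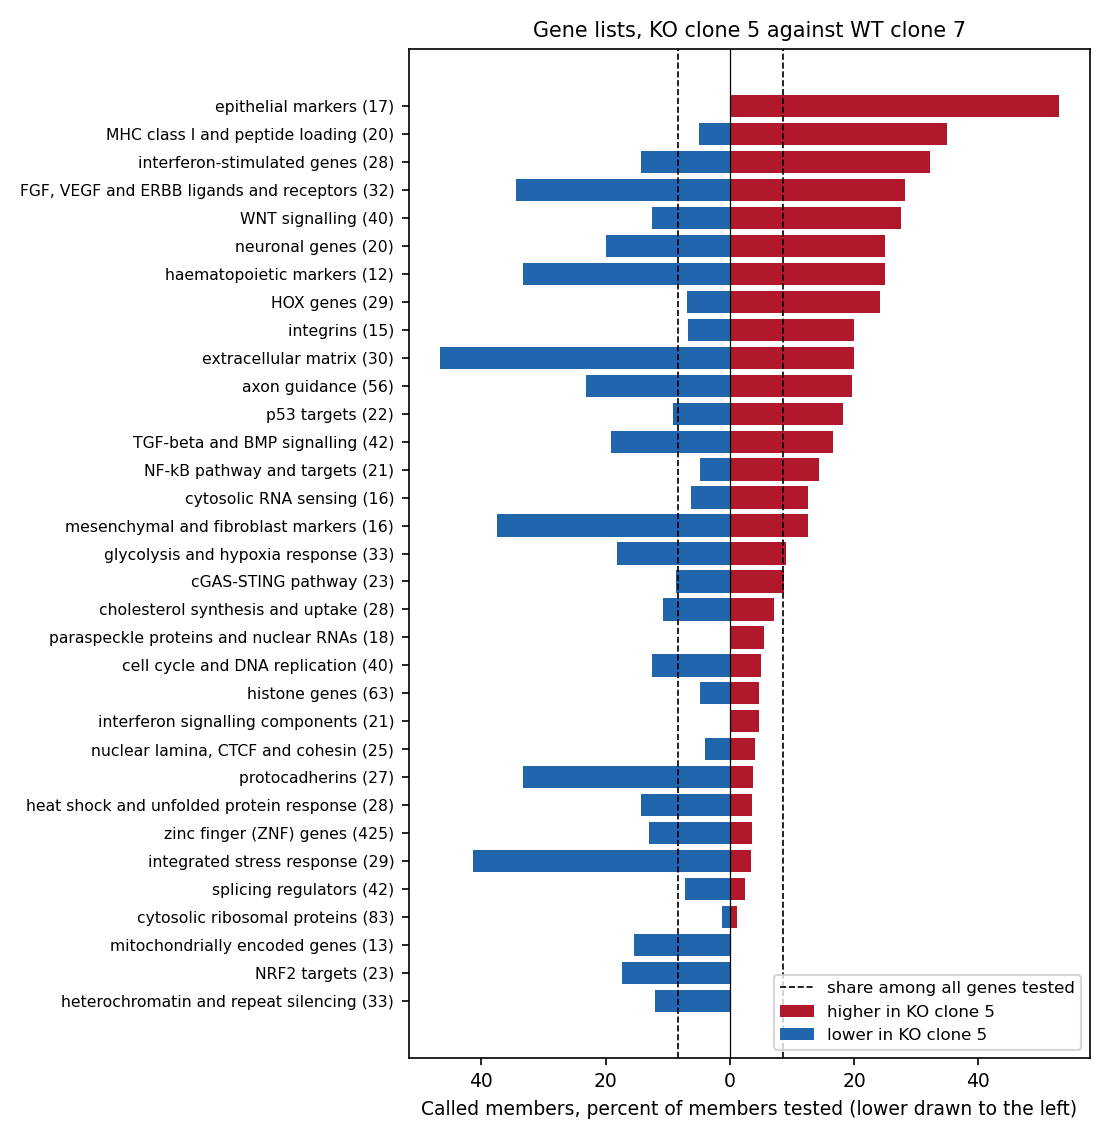
Members called higher (red, to the right) and lower (blue, to the left) in KO clone 5 against WT clone 7, as a percent of the members tested in each list, whose number is in brackets. Dashed lines mark the shares over all genes tested, 8.48% higher and 8.29% lower, and the epithelial list reaches farthest to the right while the matrix list reaches farthest to the left.

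Repeat RNA was higher in KO clone 5 than in WT clone 7. Repeats took 11.2 and 10.7% of counts in KO clone 5, against 8.44 and 7.90% in WT clone 7. The shares were 8.97 and 9.05% in KO clone 1 and 14.03, 10.3 and 10.5% in WT clone 1. Both WT clone 7 libraries thus lay below every other library of the series. Both KO clone 5 libraries lay above WT clone 1 replicates 2 and 3 and below only WT clone 1 replicate 1, which stood apart. Of 1038 repeat subfamilies tested, 306 (29.5%) were higher and 3 (0.289%) were lower, with a median log2 difference of 0.36, where genes had a median of -0.02. KO clone 5 lay above WT clone 7 without overlap in 771 subfamilies (74.3%) and below in 27 (2.6%). The count of higher subfamilies was 125 without KO clone 5 replicate 1, 139 in a fit of all 9 libraries and 106 if a call had to hold without each library. The share of counts in protein-coding genes was 76.8 and 78.3% in KO clone 5, against 80.8 and 83.0% in WT clone 7, and long non-coding RNA genes were higher at 163 and lower at 56 of 2215 tested (median 0.20). The part of such shifts between kinds of RNA in the repeat result was not tested.

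The rise ran through the transposable element classes, whereas of 15 satellites 1 was higher and 2 were lower. Of 57 SINE subfamilies 45 were higher (median 0.56), of which 42 belonged to the 51 Alu subfamilies, short elements copied by LINE enzymes. Of 161 LINE subfamilies, which include the autonomous L1 elements, 72 were higher (median 0.35). Of 537 LTR subfamilies, the remains of endogenous retroviruses, 142 were higher and 1 was lower (median 0.38), of 221 DNA transposons 38 were higher (median 0.34), and all 6 SVA subfamilies were higher (median 0.44). HERVE_a-int, the internal part of an ERV1 provirus, had 10.5 and 10.6 CPM in KO clone 5, against 2.44 and 2.43 CPM in WT clone 7 (2.11, SE 0.15). MER61-int, of the same family, had 167 and 151 CPM in KO clone 5, against 66.6 and 61.9 CPM in WT clone 7 (1.31, SE 0.09). Harlequin-int rose by 1.25 (SE 0.07) and L1PB2 by 1.11 (SE 0.08). The lower subfamilies were LTR10G (-1.27), the centromeric satellite ALR/Alpha (-0.84) and the satellite CER (-1.03). CER was not called without KO clone 5 replicate 1 (edgeR adjusted p = 0.15) or replicate 2 (0.060). Reads of related subfamilies overlap, so subfamilies are not independent of each other.

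The second pair went the other way. KO clone 1 against WT clone 1 had 8 higher (0.75%) and 131 lower (12.3%) of 1067 repeat subfamilies, with a median of -0.44. The lower count was 2 without KO clone 1 replicate 1 or 2, 69 without WT clone 1 replicate 3 and 228 without WT clone 1 replicate 2. In the test of the difference between the pairs, 83 of 1078 subfamilies (7.7%) were higher in the pair of KO clone 5 and 0 were lower. HERVE_a-int (1.43), Harlequin-int (0.83) and MER61-int (0.62) were nevertheless higher in KO clone 1 as well, and 8 subfamilies were called higher in both pairs, against 36 called higher in the first and lower in the second. WT clone 1 replicate 1 carried the high repeat share named above, and without it the difference was called for 446 subfamilies (227 without WT clone 1 replicate 2) and KO clone 1 was lower than WT clone 1 at 403. Without KO clone 1 replicate 1 or 2, or without any 1 library of KO clone 5 or WT clone 7, the difference was called for 0 or 1 subfamilies.

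**Figure D4:**
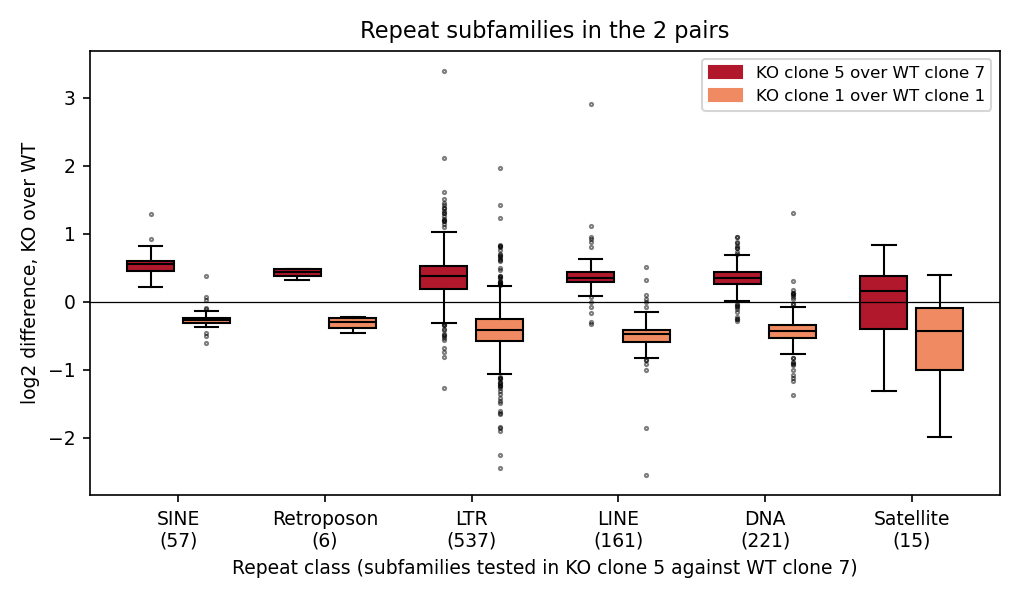
Log2 differences of repeat subfamilies by class, in KO clone 5 over WT clone 7 (red) and KO clone 1 over WT clone 1 (orange); boxes span the quartiles, lines mark medians, whiskers reach 1.5 times the box and dots lie beyond. Numbers in brackets are subfamilies tested in the first pair, and the SINE, LINE, LTR, DNA and Retroposon (SVA) medians lie above 0 in the first pair and below 0 in the second.

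Long genes were called lower more often than short ones. Among 547 protein-coding genes that span 300 kb or more, 29.6% were lower and 13.9% were higher (median -0.14), while among 2497 that span under 10 kb, 6.77% were lower and 10.3% were higher (median 0.02). In KO clone 1 against WT clone 1 the longest genes were lower at 41.3% of 557.

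Of 17382 genes tested in both pairs, 2920 were called in KO clone 5 against WT clone 7 and 2662 in KO clone 1 against WT clone 1. Over all genes tested in the second pair 15.6% were called, 6.83% higher and 8.78% lower, beside 16.8% in the first. Called the same way in both were 684 higher and 791 lower genes, which is 50.5% of the calls of the first pair and 55.4% of the calls of the second. Log2 differences correlated across genes at Pearson r = 0.76 and Spearman rho = 0.52, a description across genes that are not independent replicates, and 92.3% of 1011 genes called with at least a 2-fold change in the first pair had the same sign in the second. These figures include the raised stretch of chromosome 6, where 212 genes were called higher in the first pair and 194 in the second. Agreement without that stretch was not tested. Called in opposite directions were 21 genes, 19 higher in KO clone 5 and 2 lower.

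The test of the difference between the pairs called 183 genes higher (0.97%) and 78 lower (0.413%) in the pair of KO clone 5, of 18869 tested. JCAD, a junctional adaptor gene of endothelial cells (chr10:30012803-30115494), had 10.4 and 10.7 CPM in KO clone 5, against 4.69 and 6.59 CPM in WT clone 7, whereas it had 2.497 and 2.166 CPM in KO clone 1, against 15.2, 11.7 and 11.1 CPM in WT clone 1 (difference 3.37, SE 0.28, edgeR adjusted p = 0.0025). The synaptic calcium sensor gene DOC2B had 8.04 and 8.06 CPM in KO clone 5, against 4.32 and 3.61 CPM in WT clone 7, and 0.755 and 1.30 CPM in KO clone 1, against 3.57, 4.36 and 4.22 CPM in WT clone 1 (2.91, SE 0.30). Both genes rose in the first pair and fell in the second. BMP7 was at 0.26 in the first pair (edgeR adjusted p = 0.21) and fell by 2.17 in the second, and CCND2 fell by 0.84 in the first and by 2.85 in the second. ADGRL2, a latrophilin adhesion receptor gene, had 3.36 and 2.67 CPM in KO clone 5, against 42.3 and 42.0 CPM in WT clone 7, and 12.3 and 12.2 CPM in KO clone 1, against 42.9, 41.4 and 45.5 CPM in WT clone 1 (-1.97, SE 0.15, edgeR adjusted p = 0.0015). These 5 genes (4 higher and 1 lower) were the ones called in the difference whichever of the 9 libraries was left out.

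Other calls of the difference were less settled. TMEM200A, a transmembrane protein gene in the raised stretch of chromosome 6, had 10.9 and 10.6 CPM in KO clone 5, against 2.38 and 2.55 CPM in WT clone 7, and 0.929 and 0.924 CPM in KO clone 1, against 7.02, 2.92 and 3.63 CPM in WT clone 1 (4.37, SE 0.49). Its call was lost without KO clone 1 replicate 1 (edgeR adjusted p = 0.052) or replicate 2 (0.084). The monooxygenase-like gene MOXD1, also on that stretch, had 9.55 and 7.73 CPM in KO clone 5, against 1.82 and 1.43 CPM in WT clone 7, and was lower in KO clone 1 (-1.09). The calls for MOXD1 and for CDH2 (-0.96), ADGRL3 (-2.57) and MME (-1.09) went to 0.054 without KO clone 1 replicate 2, those for PAK3 (1.59) and CPNE8 (-1.29) to 0.061 and that for SDC2 (-1.21) to 0.064. Without 1 library the higher calls numbered from 4, without KO clone 1 replicate 2, to 560, without WT clone 1 replicate 1, and the lower calls from 1 to 287 in the same 2 cases. Without KO clone 5 replicate 1 or 2 there were 18 and 21 higher and 7 and 8 lower calls, without WT clone 7 replicate 1 or 2 there were 18 and 28 higher and 9 and 11 lower, and without KO clone 1 replicate 1 there were 13 and 8. Without WT clone 1 replicate 3 the lower calls numbered 47.

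**Figure D5:**
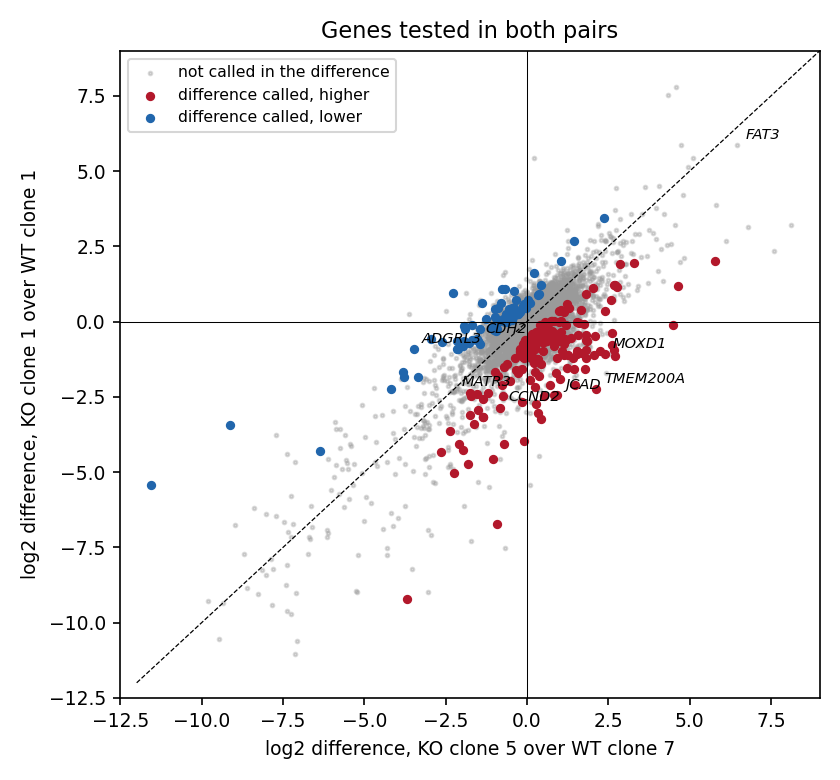
Log2 difference of each gene tested in both pairs, KO clone 5 over WT clone 7 on the horizontal axis and KO clone 1 over WT clone 1 on the vertical axis, with the dashed line marking equal values. Genes called higher (red) or lower (blue) in the difference lie away from the line, and Pearson r over all genes plotted is 0.76.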

How the data were processed

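Total RNA was depleted of ribosomal RNA and made into directional libraries with UMI adaptors, read as pairs of 100 bases (per the labels' protocols). The genome was hg38 and STAR 2.5.2a is among the tools listed, per the submitters' processing notes. The deposited raw counts per gene or repeat subfamily were used; the counting program, strand setting and use of UMIs were not given in those sources. Deposited normalized counts and the authors' test tables were not used. The table held 21003 genes (20689 placed with GENCODE 44) and 1111 repeat subfamilies, with a smallest row total of 37.

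Counts were scaled by TMM, filtered with filterByExpr (minimum count 10) and tested with the edgeR 4.0.16 quasi-likelihood F test (R 4.3.3), 2 libraries against 2, with Benjamini-Hochberg adjustment over genes and repeats together. A call needed adjusted p below 0.05. SE is the log2 difference over the root of F. CPM carry TMM scaling over all 9 libraries. KO clone 1 against WT clone 1 was fitted alone, and the difference between the pairs on all 9 libraries. Alternatives were DESeq2 1.42.0, its size factors, other filters, robust dispersions, a replicate block, a fit of all libraries and leaving out each library. The test was also run on simulated counts, drawn independently for each library with the same dispersion in every row. That run therefore does not cover deviations that libraries share. Exact permutation of 2 against 2 cannot go below p = 0.333. Intervals and bounds cover counting error only.

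Members, gene lists and alternatives were chosen with earlier results of these data known; the edge at 100 Mb on chromosome 6 and the symbols of mitochondrial genes were set after the data had been examined. Named genes were MATR3, SNHG4, 6 innate genes, the 8 largest called rises and falls without overlap at a mean CPM of 1 or more, up to 4 members per list and 4 repeats each way by smallest p, 6 genes each way in the difference and up to 4 each way called oppositely; further list members were named after their values were seen.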

Additional observations from a re-analysis of the deposited data

Results flagged for a closer look

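The effect in KO clone 5 against WT clone 7 differed from the effect in KO clone 1 against WT clone 1, by edgeR's test of the difference itself, for 33 of the genes named by rule. Up to 6 genes each way were named because they passed this same test, and others because the 2 pairs were called oppositely. The count of 33 was therefore partly set by the choice of genes. Over all 18869 genes tested, 0.97% were called higher and 0.413% lower in the difference. The values are the first log2 difference minus the second, over 9 libraries. It was positive for TMEM200A at 4.37, JCAD at 3.37, MOXD1 at 3.47, CCND2 at 2.02, BMP7 at 2.42, DOC2B at 2.91, PAK3 at 1.59, CAPN6 at 4.58, MYH14 at 3.77, AEBP1 at 3.44, LTBP1 at 3.17, VSNL1 at 3.03, CCND1 at 1.80, KIT at 1.24, MYB at 0.88, HOXD13 at 0.83, ENPP1 at 0.77 and PCDH9 at 0.73. It was negative for PPP2R2B at -6.27 and ERBB4 at -5.81, whose counts in KO clone 5 are 0 so that these fitted values depend on the prior count, and for ADGRL3 at -2.57, EPHA7 at -2.16, ADGRL2 at -1.97, TDGF1 at -1.86, EFNB2 at -1.50, CPNE8 at -1.29, ZNF440 at -1.21, SDC2 at -1.21, MME at -1.09, CDH2 at -0.96, FN1 at -0.88, AMOTL2 at -0.79 and ACAT2 at -0.56. TMEM200A, MOXD1, MYB, ENPP1 and ACAT2 lie on chromosome 6 beyond 100 Mb. Leaving out 1 library ended the call in 132 of 297 such values.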

How the results depend on the processing

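For KO clone 5 against WT clone 7, DESeq2 called 921 genes higher, robust dispersions called 5 repeat subfamilies lower and a fit of all 9 libraries called 139 subfamilies higher. Leaving out 1 library gave 928 to 1597 genes higher, 980 to 1577 genes lower, 125 to 378 subfamilies higher and 2 to 8 lower. For KO clone 1 against WT clone 1, lower subfamilies numbered 251 with DESeq2 and 263 in the fit of all libraries; leaving out 1 library gave 274 to 2469 genes higher, 352 to 2614 lower, 0 to 22 subfamilies higher and 2 to 403 lower. For the difference between the pairs, a minimum count of 50 gave 276 genes and 209 subfamilies higher, DESeq2 gave 203 genes lower and 408 subfamilies higher, and robust dispersions gave 137 subfamilies higher; leaving out 1 library gave 4 to 560 genes higher, 1 to 287 lower and 0 to 446 subfamilies higher. The causes were not tested.

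With the replicate number as a block, KO clone 5 against WT clone 7 gave 3388 genes higher and 4147 lower and 650 subfamilies higher and 9 lower, KO clone 1 against WT clone 1 gave 457 subfamilies lower, and the difference gave 388 genes higher, 193 lower and 517 subfamilies higher. Same-numbered libraries deviated together across 18718 genes and subfamilies (r = 0.60), but the labels do not say what the numbers share, so no pairing is assumed.

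Of 1180 values of the named genes and subfamilies of KO clone 5 against WT clone 7 under other settings, 26 lost the call, 40 gained it and 0 reversed, and of 679 with 1 library left out 70 lost it. With 2 libraries a clone and 1 clone a genotype, small changes of low genes were not detectable. Repeat counts pool all copies of a subfamily.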
